A study of Mus musculus with 6 samples.

Results

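The peaks described here are those of 4 mouse genes whose 3′ UTRs held some of the highest ZFP36L2 over IgG values in an eCLIP experiment: Sec63, Bsg, Hipk2 and Peak1. All rows of the authors' deposited peak table that carry 1 of these gene names were taken, which gave 72 of 55449 peaks, and the 16 peaks in 3′ UTRs were set beside the other 56 peaks of the same genes. The genes were chosen by the log2 fold changes of their 3′ UTR peaks in this same comparison, so all values are given below as a description, with the authors' adjusted p and without a further test. The cells were MLTC-1, a mouse Leydig cell tumour line, grown in serum-containing medium and irradiated with ultraviolet light at 400 mJ per cm2, which crosslinks proteins to the RNA they touch. ZFP36L2 was pulled down in 2 immunoprecipitation libraries with an antibody (ab70775), rabbit IgG (ab313801) served as the negative control in 1 library, and each of these 3 had its own input library of RNA bound by all proteins. No treatment other than the crosslink is given, all 6 libraries come from this 1 line, and nothing in the labels says that they came from separate cultures.

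ZFP36L2 belongs to the tristetraprolin family of CCCH zinc finger proteins, which are known to bind AU-rich elements, mostly in 3′ UTRs, and to recruit the CCR4-NOT deadenylase so that the bound mRNA is shortened at its tail and degraded. In eCLIP the RNA fragments left on the precipitated protein are sequenced, and a cluster of their reads is a peak. The 4 genes act in different places in the cell. SEC63 and basigin are membrane proteins, of the endoplasmic reticulum and of the cell surface, while HIPK2 is a nuclear kinase and PEAK1 a pseudokinase of the cytoskeleton.

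For each peak the table held a log2 fold change with raw and adjusted p-values, and no value of a library, so the depth is unknown and no spread between libraries can be given. The IgG arm rested on 1 library. Enriched peaks are those whose log2 fold change is at least 1 and whose adjusted p is under 0.05. Depleted peaks, lower with ZFP36L2 than with IgG, have -1 or less and pass the same adjusted p. The median over all peaks was -1.06 and 76.2% of the values lay below 0, so values are also set against that median below. Peaks were present in the Leydig cell genes Cyp11a1 (35), Lhcgr (16) and Star (3), and Zfp36l2 itself had none. These counts hold peaks of any value, called or not, and the identity of the cells was not tested. Positions are on build mm10, and all 72 peaks lay inside the RefSeq span of their gene.

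Of the 72 peaks, 19 were enriched and 5 depleted, against 2.22% and 5.44% of all peaks. In the 3′ UTRs, 12 of 16 3′ UTR peaks were enriched, against a background of 1.46% of all 3′ UTR peaks, a share that the choice of genes made high. In the authors' deposited table their values ran from -0.95 to 6.72 with a median of 3.22. In the coding sequence of the same genes, 6 of 17 peaks were enriched (background 2.35%), with a median of 1.20. In introns 1 of 39 was enriched (background 2.17%) and 5 were depleted (background 7.04%), with a median of -1.42. None of the 33 exonic peaks was depleted. Of all 3′ UTR peaks 4.83% were, and of all coding peaks 3.74%, shares at which 33 peaks would hold few or none. Of the 33 exonic peaks 31 lay above 0, and of the 39 intronic peaks 30 lay below it. Values above 0 made up 21.4% of all 3′ UTR peaks, 29.7% of all coding peaks and 19.5% of all intronic peaks. The intronic count of these genes was thus near the share of all introns. Relative to the median of all peaks, all 33 exonic peaks were higher, as were 17 of the 39 intronic ones.

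**Figure D1:**
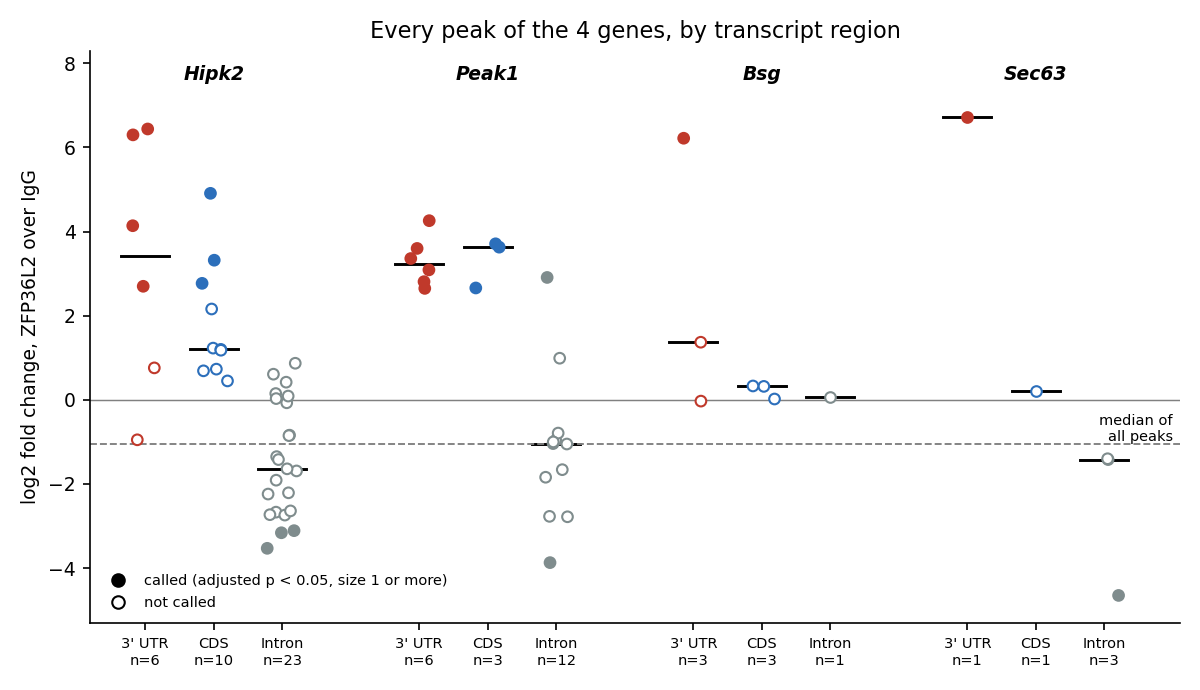
Log2 fold change of ZFP36L2 over IgG (vertical axis) for all 72 peaks of the 4 genes, by gene and transcript region (horizontal axis, n is the number of peaks). Points are peaks, filled where called, short bars are medians of the peaks and the dashed line is the median of all 55449 peaks. The 3′ UTR peaks reach 6.72, 6.44, 6.22 and 4.26 in Sec63, Hipk2, Bsg and Peak1, while the 5 depleted peaks are all intronic.

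Sec63 encodes the J-domain protein of the endoplasmic reticulum membrane that brings the chaperone BiP to the SEC61 channel, through which secretory proteins enter. The gene lies on the plus strand of chromosome 10, from 42761496 to 42832514. Its 3′ UTR held 1 peak, of 50 nucleotides at 42829118 to 42829167, 3347 nucleotides before the annotated end of the gene. In the authors' deposited table this peak stood at 6.72 on the log2 scale, which is 105-fold higher with ZFP36L2 than with IgG (adjusted p = 2.6e-23, from the authors' comparison). It was the highest of the 7537 3′ UTR peaks and ranked 2 among all peaks by log2 fold change, and ranked 9 among 3′ UTR peaks by adjusted p.

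The other 4 peaks of Sec63 were far from that value. The authors' deposited table gave 0.20 for a coding peak of 5 nucleotides, and -1.42 and -1.40 for a touching pair of intronic peaks, of 7 and 30 nucleotides, all uncalled. The remaining intronic peak, of 39 nucleotides at 42786226 to 42786264, was depleted at -4.65, or 25.1-fold higher with IgG (adjusted p = 9.5e-10, the authors' comparison). Thus 1 enriched and 1 depleted peak were found among the 5 of this gene.

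Bsg encodes basigin, also called CD147, an immunoglobulin-superfamily glycoprotein that carries the lactate transporters MCT1 and MCT4 to the plasma membrane and that male mice need to make sperm. The gene spans 79704358 to 79711979 on the plus strand of chromosome 10. All 3 of its 3′ UTR peaks lay within 118 nucleotides, and the values dropped off along them in the 5′ to 3′ direction. The upstream peak, 57 nucleotides long at 79711818 to 79711874, had 6.22 in the authors' deposited table, which is 74.5-fold (adjusted p = 6.5e-26, the authors' comparison). After a gap of 7 nucleotides, the next peak, at 79711882 to 79711917, had 1.37 (adjusted p = 1.0). The peak that touches it, at 79711918 to 79711935, had -0.03. Both of these lay nearer to the annotated gene end, at 62 and 44 nucleotides from it, against 105 for the enriched peak.

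Outside the 3′ UTR the peaks of Bsg stood near 0. Its coding peaks had 0.33, 0.32 and 0.02 and its intronic peak 0.07, per the authors' deposited table, and no call was made among them. These 4 values span 0.31, against 6.25 within the 3′ UTR. All 7 Bsg peaks lay above the median of all peaks, the 4 outside the 3′ UTR by 1.08 to 1.39.

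Hipk2 encodes a homeodomain-interacting protein kinase, which phosphorylates p53 after DNA damage and acts on transcriptional corepressors. The gene covers 188820 base pairs on the minus strand of chromosome 6, from 38687512 to 38876331, and had 39 peaks, of which 7 were enriched and 3 depleted. Of its 6 3′ UTR peaks 4 were enriched, 1 upstream and 3 downstream of an uncalled pair. In the 5′ to 3′ direction, the most upstream of them, at 38698085 to 38698131, had 4.14 (adjusted p = 2.0e-08, the authors' deposited table). A touching pair 1255 nucleotides further on, 30 and 31 nucleotides long, followed with -0.95 and 0.76, neither called.

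The next 2 peaks of Hipk2 were the highest of the gene. At 38695757 to 38695811 the value was 6.44, or 86.8-fold (adjusted p = 1.5e-27), and at 38695494 to 38695575, 181 nucleotides downstream, it was 6.30, or 78.8-fold (adjusted p = 5.8e-20), both in the authors' deposited table. These ranked 2 and 3 by log2 fold change among all 3′ UTR peaks, directly below the Sec63 peak. The most downstream peak, at 38694723 to 38694804, had 2.7 (adjusted p = 0.0074, per the authors' deposited table). All 6 lay between 7211 and 10573 nucleotides before the annotated gene end, so the last 7211 nucleotides of the annotated gene held no peak. The 6 values spanned 7.39, the widest range within a 3′ UTR among the 4 genes.

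The 10 coding peaks of Hipk2 all lay above 0, ranging from 0.45 to 4.91 (median 1.22) in the authors' deposited table, and 3 were enriched. The highest, at 38729927 to 38729950, had 4.91 (adjusted p = 6.8e-11). It touched a second enriched peak, at 38729951 to 38729985, with 2.77 (adjusted p = 0.0020), and the third, of 15 nucleotides at 38721556 to 38721570, had 3.32 (adjusted p = 0.0048), all in the authors' deposited table. The coding peak nearest to the 3′ UTR, at 38698507 to 38698548, had 0.45 and was not called, although the 3′ UTR peak 375 nucleotides downstream was enriched. A coding peak at 2.16 was the highest that was not called (adjusted p = 0.30).

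None of the 23 intronic peaks of Hipk2 was enriched. Between 62630 and 127861 nucleotides before the gene end, a stretch marked out after the values were seen, all 14 intronic peaks lay below 0, from -3.53 to -1.35 in the authors' deposited table. The 3 depleted peaks lay in this stretch, with -3.53 (adjusted p = 0.0010), -3.16 (adjusted p = 0.011) and -3.11 (adjusted p = 0.011). They were 7 to 11 nucleotides long. The remaining 9 intronic peaks ran from -0.85 to 0.87. Over the intronic peaks of all genes the median was -1.31, and 19.5% lay above 0. Of the Hipk2 peaks, 13, none in the 3′ UTR and 2 of them depleted, overlapped the RefSeq gene 4930502C15Rik. The peaks are listed on the strand of Hipk2, but overlap was judged by position alone, without the strand of the other gene. The sources used here do not say how reads of overlapping genes were counted. Whether reads of these genes can be told apart there was not examined.

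Peak1 encodes a pseudokinase scaffold that joins SHC and GRB2 signalling to focal adhesions and the actin cytoskeleton. The gene covers 217097 base pairs on the minus strand of chromosome 9, from 56201126 to 56418222. All 6 of its 3′ UTR peaks were enriched, with values that lay close together. From 5′ to 3′ they had 3.36, 4.26, 2.81, 2.65, 3.09 and 3.60 in the authors' deposited table, a range of 1.61. The highest, of 29 nucleotides at 56202548 to 56202576, was 19.2-fold higher with ZFP36L2 (adjusted p = 9.3e-14), and the weakest adjusted p of the 6 was 2.6e-04, both from the authors' comparison. They were spread over 2078 nucleotides that ended 263 nucleotides before the annotated gene end. Only 2 of the 6 touched each other.

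The coding peaks of Peak1 lay within the range of its 3′ UTR peaks. All 3, between 56206977 and 56207570, were enriched, with 3.71, 3.63 and 2.66 in the authors' deposited table (adjusted p = 3.5e-09, 1.5e-08 and 1.5e-04). The median of the 3′ UTR peaks lay 0.41 below that of the coding peaks, while over the 2147 genes with both kinds of peak the median difference was -0.21. An intronic peak at 56223613 to 56223664 was also enriched, with 2.91 (adjusted p = 2.1e-05, per the authors' deposited table), and its neighbour 253 nucleotides upstream had 0.99 and was not called. These 11 peaks, 9 of them exonic, were all above 0. They reached 22792 nucleotides from the gene end, a bound set after the values were seen. The other 10, all intronic and at least 53567 nucleotides from the gene end, were all below 0, from -3.87 to -0.79 in the authors' deposited table. Values below 0 were common in introns, since 19.5% of all intronic peaks lay above 0, with a median of -1.31. Relative to the median of all peaks, 7 of the 12 intronic peaks of Peak1 were higher. The lowest of the 10, at 56296636 to 56296662, was depleted (adjusted p = 2.7e-04), and it was 1 of 5 intronic peaks that overlapped the RefSeq gene Peak1os. No 3′ UTR peak of the 4 genes overlapped another RefSeq gene, and no peak of another gene lay within 1000 nucleotides of the highest 3′ UTR peak of any of them.

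**Figure D2:**
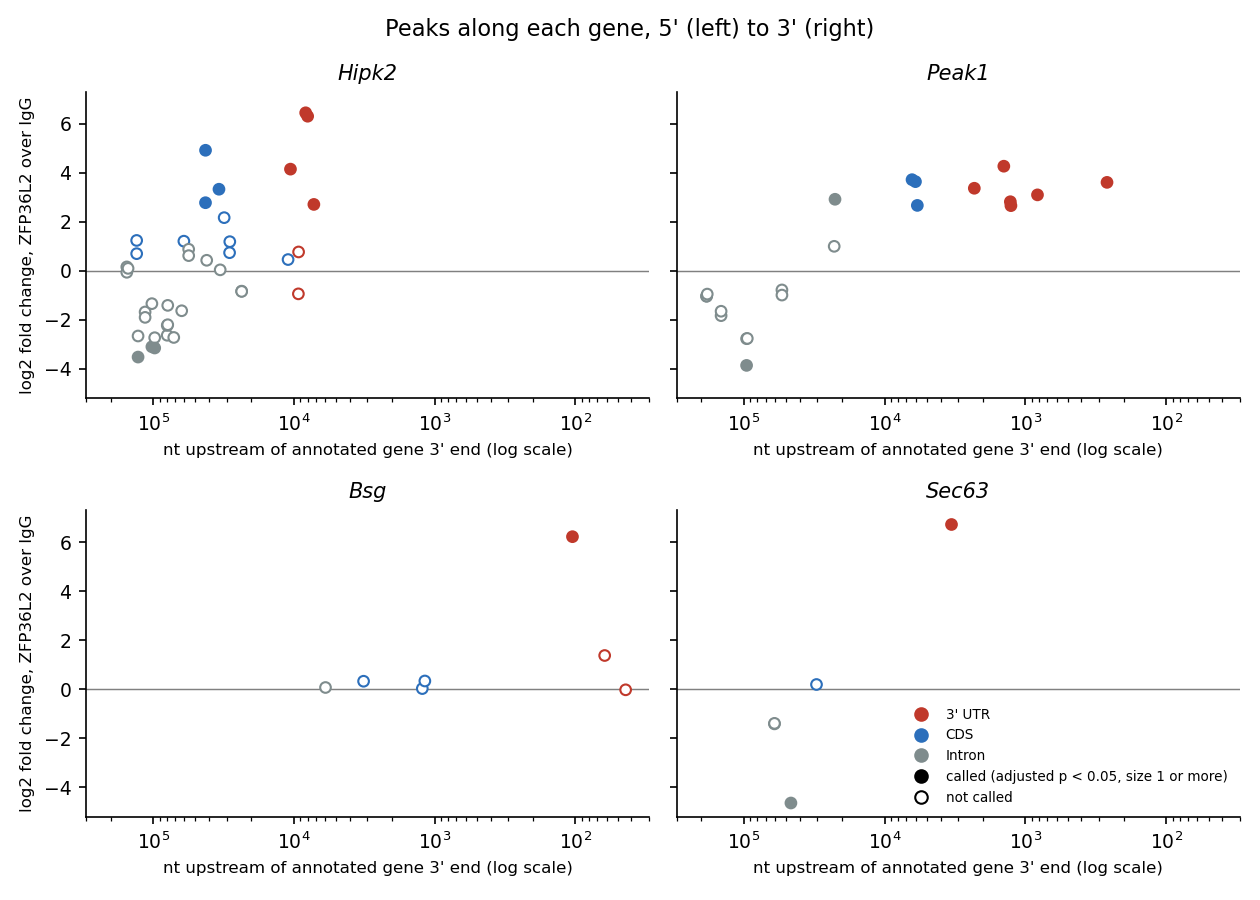
Log2 fold change of ZFP36L2 over IgG (vertical axis) against the distance of each peak from the annotated 3′ end of its gene in nucleotides (horizontal log axis, 5′ to the left), with 1 panel per gene. Points are peaks, coloured by region and filled where called. In Peak1 all 11 peaks within 22792 nucleotides of the end, a bound set after the values were seen, are above 0. The 10 beyond, all intronic, are below 0, where 19.5% of all intronic peaks lie above it. In Hipk2 a pair of uncalled 3′ UTR peaks lies between enriched ones, and in Bsg and Sec63 1 peak stands far above the rest.

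The 3′ UTR peaks were next ranked among all genes. An enriched 3′ UTR peak was present in 75 of 3448 genes with a peak there (2.18%), and 57 of these had 1 such peak. In 18 of the 75 genes every 3′ UTR peak was enriched, and among these Peak1 was the only one with 3 or more such peaks. With Hipk2, which had 4, and Eif4ebp2, which had 11, it made up the 3 genes with at least 4. The 12 enriched peaks of the 4 genes were 10.9% of the 110 enriched 3′ UTR peaks. By their highest 3′ UTR peak, Sec63, Hipk2 and Bsg ranked 1, 2 and 3 of the 75 genes, and Peak1 ranked 16. The choice of genes made these ranks high. Peak1 stood between Lamc1, a laminin chain (4.29), and Zbtb20, a zinc finger repressor (4.14), per the authors' deposited table. The table gives no error for these values, so neighbours this close have no established order.

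**Figure D3:**
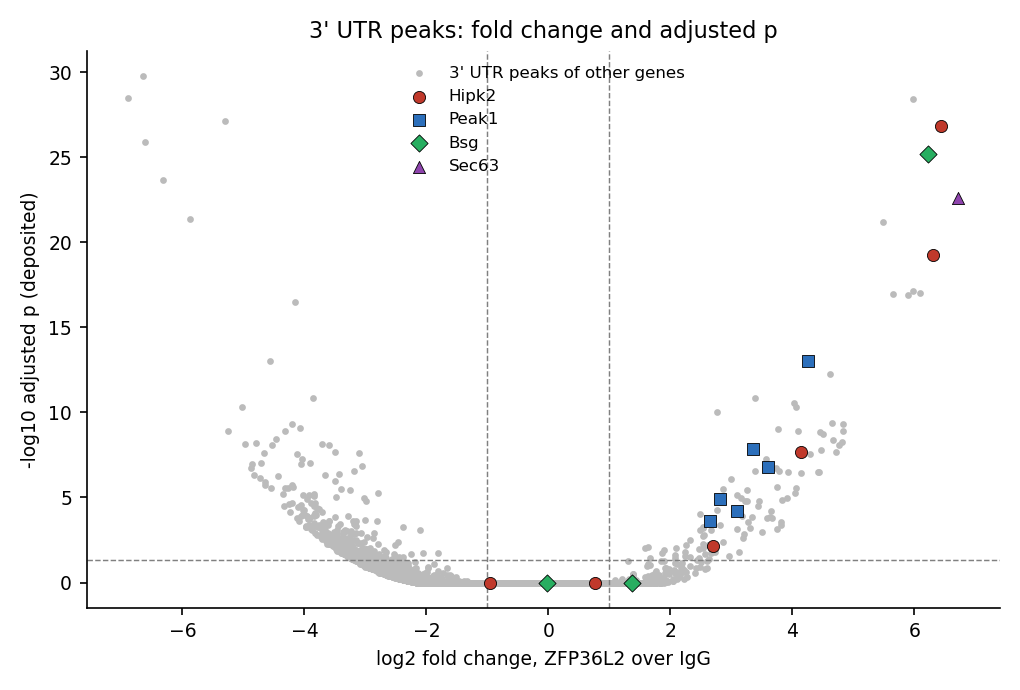
Deposited −log10 adjusted p (vertical axis) against log2 fold change of ZFP36L2 over IgG (horizontal axis) for the 7537 3′ UTR peaks. Coloured symbols are the 16 peaks of the 4 genes, grey points are all other 3′ UTR peaks, and dashed lines are the thresholds of a call. The highest peaks of Sec63, Hipk2 and Bsg lie at the far right, at 6.72, 6.44 and 6.22, and the 6 Peak1 peaks lie between 2.65 and 4.26.

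To set the 3′ UTR against the rest of the same transcript, the highest 3′ UTR value of a gene was compared with the median of its other peaks. The difference was 8.13 in Sec63 (6.72 against -1.41), 6.51 in Hipk2 (6.44 against -0.07), 6.03 in Bsg (6.22 against 0.20) and 5.26 in Peak1 (4.26 against -1.0), from the authors' deposited values. Over the 2737 genes with both kinds of peak, its median was 0.38, and its 5th and 95th percentiles were -1.97 and 2.68. The 4 genes ranked 1, 3, 8 and 14 by it, in the order just given. They were chosen by their 3′ UTR values, which enter this difference, so high ranks were built in. A highest value grows with the number of peaks it is drawn from, and the 4 genes had from 1 to 6 3′ UTR peaks and from 4 to 33 others.

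With the median of the 3′ UTR peaks in place of the highest, the differences in log2 fold change were 8.13, 3.49, 1.18 and 4.22 for Sec63, Hipk2, Bsg and Peak1, from the authors' deposited values. Bsg then ranked 470, since 2 of its 3 3′ UTR peaks were not called. The pattern of Bsg and Sec63 thus rested on 1 peak each.

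Much of the difference in Peak1 and Hipk2 lay between exons and introns. The median of 3′ UTR and coding peaks together was higher than that of intronic peaks by 4.41 in Peak1 and 3.34 in Hipk2, against a median of 0.40 over 3793 genes, on the scale of the deposited log2 fold changes. In Sec63 this difference was 4.88, from 1 3′ UTR, 1 coding and 3 intronic peaks. The 3′ UTR values by which the genes were chosen enter these medians, so the differences were partly built in. Without them, the coding median lay above the intronic one by 4.675 in Peak1, 2.855 in Hipk2, 1.62 in Sec63 and 0.25 in Bsg. Over 3244 genes that difference had a median of 0.51 and a 95th percentile of 2.72. Within exons, the 3′ UTR median of Hipk2 was 2.20 above its coding median, and that of Sec63 6.52 above its only coding peak. In Bsg the exonic and intronic medians differed by 0.26.

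**Figure D4:**
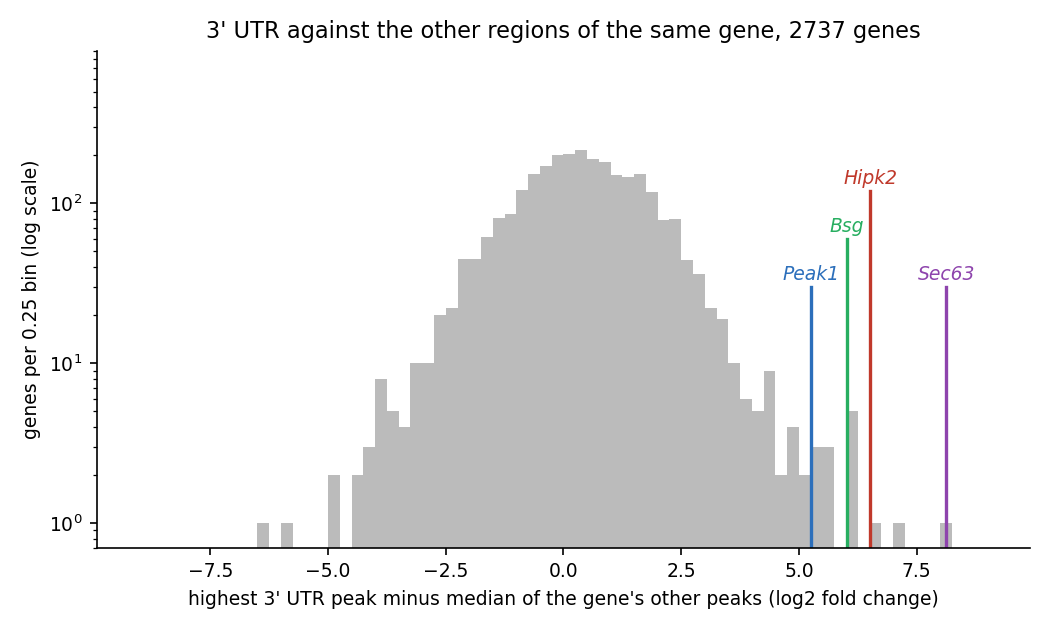
Number of genes (vertical log axis, bins of 0.25) by the difference in log2 fold change between the highest 3′ UTR peak and the median of the gene's other peaks (horizontal axis), over 2737 genes. Coloured lines mark the 4 genes, at 5.26 for Peak1, 6.03 for Bsg, 6.51 for Hipk2 and 8.13 for Sec63, beside a median of 0.38 for all genes.

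The 5 other genes with an enriched 3′ UTR peak and the largest such difference were Eif4ebp2, Notch2, Cox8a, Rrp1 and Zbtb20. Eif4ebp2, a repressor of cap-dependent translation, had 11 of 12 3′ UTR peaks enriched and a difference of 7.17 between 5.98 and -1.19 in the authors' deposited table. Notch2, a receptor of cell-to-cell signalling, had a difference of 6.23, with 1 of 2 3′ UTR peaks enriched and 1 depleted peak elsewhere. Cox8a, a subunit of cytochrome c oxidase, had 6.10 with both of its 3′ UTR peaks enriched, and Rrp1, a ribosome biogenesis factor, 6.03 with 1 of 1. Zbtb20 had a difference of 5.67, but 1 enriched peak among 23 in its 3′ UTR. Of the 75 genes, 12, among them Sec63, Hipk2 and Peak1, had a depleted peak outside the 3′ UTR, and 20, among them Hipk2 and Peak1, had an enriched one there. Over all genes with a peak, 17.3% had a depleted peak and 5.04% an enriched one, in any region. Those genes had 5.2 peaks each on average, and the 75 were not matched to them in number of peaks. A gene with more peaks has more chances of a call, so these shares are not compared like with like.

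Lists of known partners and pathway genes were drawn up for each of the 4 proteins, with earlier results of these data known. The medians of their log2 fold changes were -0.44 for basigin, -0.87 for SEC63, -0.80 for HIPK2 and -1.06 for PEAK1, next to -1.06 over all peaks, from the authors' deposited values. Among partners of basigin and genes of lactate transport, 2 of 23 genes with a peak had an enriched one and 6 a depleted one, where 5.04% and 17.3% of all genes did. By peaks, 1.6% of the 125 were enriched and 4.8% depleted, near the shares of all peaks. Slc16a1, which encodes MCT1, the transporter that basigin escorts, had 1 peak, in its 3′ UTR at 104656347 to 104656405 on chromosome 3, at 3.78 (adjusted p = 2.6e-07, per the authors' deposited table). Ldha, the lactate dehydrogenase subunit, had 1 of 4 peaks enriched, also in the 3′ UTR, with 2.47 (adjusted p = 0.010). Nptn, neuroplastin, the relative of basigin, was depleted in a 3′ UTR peak of 13 nucleotides at -3.76 (adjusted p = 5.6e-04, per the authors' deposited table). The depleted genes also included Slc3a2, an amino acid transporter heavy chain (-3.67), and Ldhb, the other lactate dehydrogenase subunit (-3.54), both in coding sequence per the authors' deposited table.

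Of 31 genes of protein translocation into the endoplasmic reticulum, 3 had an enriched and 8 a depleted peak, beside 5.04% and 17.3% of all genes. By peaks, 1.82% of the 165 were enriched and 5.45% depleted, near the 2.22% and 5.44% of all peaks. Ssr3, a subunit of the translocon-associated complex, had 4.22 in a coding peak of 5 nucleotides (adjusted p = 1.4e-10), and Hyou1, a nucleotide exchange factor of BiP, 3.93 in its 3′ UTR (adjusted p = 3.2e-07), in the authors' deposited table. Sec62, the partner of SEC63 at the channel, had 3.60 in an intron (adjusted p = 1.2e-06, per the authors' deposited table). Dnajc1, another J-domain protein, had the strongest depleted peak by adjusted p, at -3.69 in an intron, followed by Srp68, of the signal recognition particle, at -3.50 and Rpn1, of the oligosaccharyltransferase, at -3.24, both coding, per the authors' deposited table.

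The kinase lists held 1 enriched peak in all. Among 29 genes of PEAK1 partners and adhesion signalling, 1 had an enriched peak and 9 a depleted one, beside 5.04% and 17.3% of all genes. These genes had 11.2 peaks each on average, against 5.2 over all genes, and by peaks 0.309% were enriched and 4.01% depleted, against 2.22% and 5.44% of all peaks. Tln1, the integrin activator talin, was in both groups, with coding peaks of 3.91 (adjusted p = 1.0e-07) and -4.31 (adjusted p = 5.1e-06), and Dock1, a Rac activator (-3.25), and Ptpn1, a tyrosine phosphatase (-3.22), were among the depleted, in the authors' deposited table. No enriched peak occurred in 24 genes of HIPK2 partners and family, and 2 of them had a depleted one, beside 5.04% and 17.3% of all genes. By peaks, 0% of the 186 were enriched and 2.69% depleted, against 2.22% and 5.44% of all peaks. At an unadjusted p under 0.05 in the authors' comparison, 3 of the 186 lay above 0 and 17 below, where 2.94% and 11.2% of all peaks did. The corepressor Ctbp2 (-3.47) and the kinase Nlk (-3.51) had depleted intronic peaks there. None of the 19 3′ UTR peaks of the HIPK2 list and none of the 42 of the PEAK1 list was enriched, where 1.46% of all 3′ UTR peaks were, a share at which lists of this size would hold few or none. The highest of them had 1.36 and 0.48 in the authors' deposited table.

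**Figure D5:**
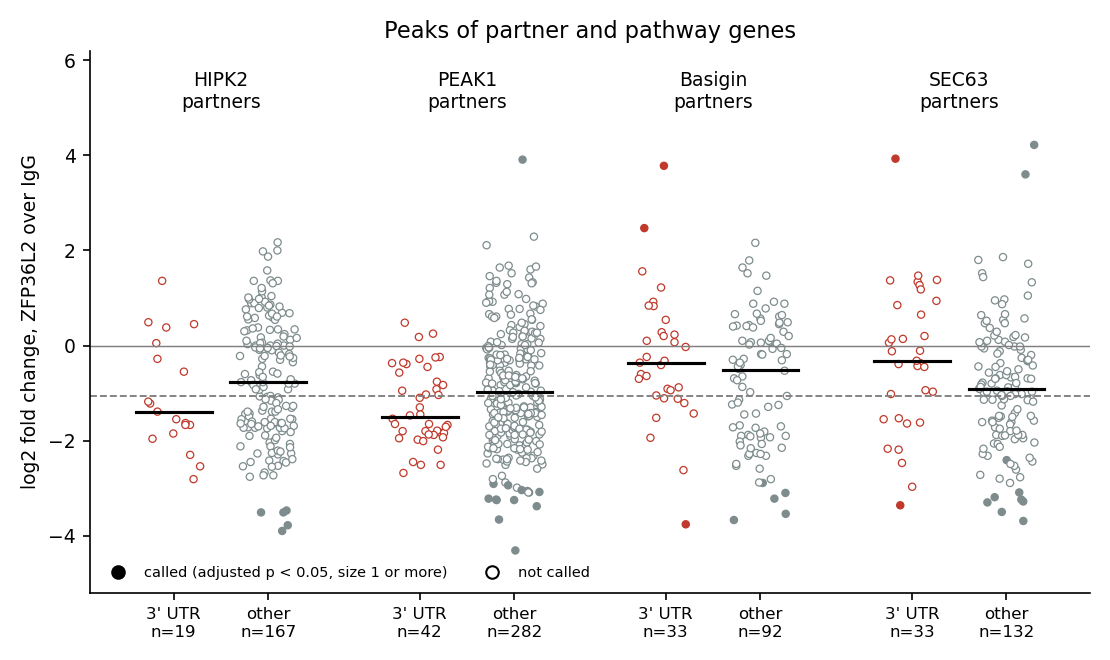
Log2 fold change of ZFP36L2 over IgG (vertical axis) for the peaks of the partner lists of the 4 proteins, with 3′ UTR peaks left of the peaks of other regions (horizontal axis, n is the number of peaks). Points are peaks, filled where called, short bars are medians and the dashed line is the median of all peaks. Enriched 3′ UTR peaks occur in the basigin list (2) and the SEC63 list (1), and in neither kinase list.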

How the data were processed

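The tools named in the submitters' processing notes are STAR 2.7.7a, cutadapt 3.2, UMI-tools 1.1.1 and DESeq2 1.34.0, and the build is mm10; roles and order are not stated. The sources used here do not give the peak calling, the pooling of libraries, the use of the inputs or the normalization. The authors deposited log2 fold changes, taken as ZFP36L2 over IgG from the table's name, and p-values and adjusted p-values as −log10 values, which were converted back here. Recomputed Benjamini-Hochberg values differed from the deposited −log10 adjusted p by at most 0.0099. Which spread these p-values measure is unknown.

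Gene names and regions are the table's. Starts were counted from 0 and were raised by 1. Gene ends came from RefSeq (GRCm38.p6). Counts, medians and differences were computed with Python 3.11.15 and pandas 2.3.3. A check of the code on simulated data with 200 shifted genes covered its arithmetic, calls and merging only, not noise or the choice of genes. The 4 genes and the 4 partner lists were chosen with earlier results of these data known. Named genes are the 4 genes, up to 3 enriched and 3 depleted members per list by adjusted p, the 5 most alike genes and the neighbours in rank. An item that this rule names is not reported here. Alternatives changed the thresholds, centring, merging of touching peaks and summaries. The base sequence of the peaks was not analysed here.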

Additional observations from a re-analysis of the deposited data

How the results depend on the processing

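Centring on the median of all peaks or of 3′ UTR peaks adds 1.06 or 1.08 to every value, so it can only raise the highest 3′ UTR values and does not test them. Counts of called peaks of the 4 genes stayed within 1.5 times when touching peaks were merged. A log2 fold change of 2, centring and the use of peaks with 1 gene name only could not change these counts. Every called peak stood at 2.65 or more or at -3.11 or less, and the uncalled ones failed on the adjusted p. None of the 72 peaks carried several gene names. At an adjusted p under 0.01, depleted Hipk2 peaks outside the 3′ UTR numbered 1 instead of 3, enriched and depleted peaks of the basigin list 1 and 3 instead of 2 and 6, and depleted peaks of the SEC63 list 5 instead of 9. The other 20 counts stayed within 1.5 times there. The difference between the highest 3′ UTR peak and the other peaks was 6.86, 4.52, 6.04 and 8.54 in Hipk2, Peak1, Bsg and Sec63 with the mean of the other peaks, and 6.35, 5.03, 6.25 and 7.90 with each region centred on its own median. With the median of the 3′ UTR peaks it was 3.49 in Hipk2, 4.22 in Peak1 and 1.18 in Bsg. No paired analysis was possible because the table holds no column of a library, and leaving out a library could not be run for the same reason. Depth per peak is unknown, and the IgG arm is 1 library, so the antibody and that library cannot be told apart.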

Other observations

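Neighbouring peaks of the 4 genes often touched, in 20 pairs. In the authors' deposited table the log2 fold changes of touching peaks differed by 0.01 to 2.14 (median 0.36). In 4 pairs, all intronic, 1 of the 2 peaks was called. In Hipk2, peaks of 7, 11 and 11 nucleotides were depleted (-3.53, -3.16 and -3.11), while the touching peaks of 24, 37 and 37 nucleotides, with -2.67, -2.74 and -1.35, were not called, and in Peak1 a peak of 27 nucleotides was depleted at -3.87 and its neighbour of 8 nucleotides, at -2.78, was not. Touching 3′ UTR peaks occurred in Hipk2 (-0.95 beside 0.76), Peak1 (2.81 beside 2.65) and Bsg (1.37 beside -0.03).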
